A study of Mus musculus with 12 samples.

Results

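The genes described here are 10 targets of the transcription factor p53 that act in cell death: Bbc3, Pmaip1, Bax and Apaf1 of the mitochondrial arm, Fas, Tnfrsf10b and Eda2r of the death receptor arm, and Perp, Aen and Phlda3, which fall in neither. They were taken by symbol from a table of 24421 gene symbols, and all 10 were among the 14810 genes with enough counts to be tested. The table holds RNA sequencing counts of 12 libraries from C57Bl/6 mouse embryos with a neural crest-specific alteration of Eftud2, which encodes a spliceosomal GTPase. Controls were heterozygous (Eftud2+/-) and mutants homozygous (Eftud2-/-). Both genotypes were collected on embryonic days 9.0 and 9.5 (written E9.0 and E9.5), which makes 4 groups of 3 libraries, and no embryo was treated. The control embryos thus carry the altered allele too, and no library with both Eftud2 alleles intact was analysed here. The title of the series names p53 activity in these mutants as its subject.

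The labels limit these groups as a model in several ways. The alteration is described as specific to neural crest cells, but neither the driver that restricts it to them nor the number of embryos per library is named. One label gives neural crest cells as the source, another gives cranial nerve ganglia as the tissue, and by the protocol whole heads were stored, so each level below is that of a mixture of cells. Sums over marker genes fixed for each cell type reached 479 to 924 CPM for migrating neural crest, 165 to 270 CPM for cranial ganglia and early neurons, 526 to 808 CPM for epithelium, 183 to 369 CPM for endothelium and 552 to 5297 CPM for erythroid cells, so no library held neural crest alone. CPM are counts relative to the size of the library, scaled with TMM factors that set libraries to a common baseline. A lower level of a gene in fewer cells and a lower level per cell cannot be told apart in such data. The labels do not say that the 3 libraries of a group came from separate litters or collections, so p-values measure only the spread between these libraries.

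p53 is held at a low level by the ubiquitin ligase Mdm2, and when it accumulates after damage or stress it binds DNA as a tetramer and raises the transcription of its targets. In the mitochondrial arm, BH3-only proteins such as those of Bbc3 and Pmaip1 neutralise the protective members of the BCL2 family, Bax then opens the outer mitochondrial membrane, and released cytochrome c assembles with Apaf1 into the apoptosome, which activates caspase-9. In the death receptor arm, ligands of the TNF family bind receptors at the cell surface, and receptors such as Fas recruit Fadd and activate caspase-8. Neural crest cells of the head are known for their sensitivity to p53-dependent death in several models of craniofacial disease.

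The libraries held 13914543 to 31172708 counts. At E9.0 the heterozygous ones held 19810025 to 24302660 and the homozygous ones 13914543 to 16590999, and at E9.5 all held 24165537 or more. The ribosomal precursor Rn45s took 6.05% to 37.4% of the counts at E9.0 and 4.40% to 5.90% at E9.5. TMM factors were 0.664 to 1.05 at E9.0 and 1.09 to 1.11 at E9.5. Neither range overlapped between the stages, so the parts of stage and of these library differences cannot be told apart here. Heterozygous E9.0 replicate 1 stood apart: Rn45s took 37.4% of its counts, against 4.40% to 16.2% in the other 11, and its TMM factor was 0.664 against 0.924 to 1.11. The genotype tests of the members, of Eftud2 and of the gene and marker lists at E9.0 are therefore also given without it. Eftud2 itself was at 285.8 ± 14.6 CPM (mean ± SD, n = 3) in heterozygous and 234.3 ± 1.95 CPM in homozygous libraries at E9.0, and at 255.8 ± 8.44 and 224.4 ± 2.96 CPM at E9.5. It was lower in the homozygous libraries at both stages, and the fall was called at E9.0, with a log2 fold change of −0.29 ± 0.05 (SE) and an edgeR adjusted p of 0.0193. Without heterozygous E9.0 replicate 1 that call was lost (−0.25 ± 0.05, edgeR adjusted p = 0.0645). The E9.5 difference of −0.19 ± 0.05 missed the threshold (edgeR adjusted p = 0.0906). Whole-gene counts cannot show whether an altered Eftud2 transcript is still made.

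The stretches of promoter below are shown because they carry the short motifs that were searched for in the window from 250 bases before to 50 bases after each start of transcription listed by RefSeq for the build GRCm38.p6, which is mm10. The search covered 10 promoters of 7 members. Pmaip1, Perp and Tnfrsf10b had no entry in the promoter table used here. Sequences run 5′ to 3′ on the strand of the gene, in lower case, with the motif in capitals. For Bax (chr7:45466899-45467148, minus strand) and Aen (chr7:78895927-78895956, plus strand, within an Aen exon) the capitals mark a match to the 10-base p53 half-site. For Phlda3 (chr1:135765835-135766084, plus strand) they mark GGGCGG or its reverse complement, the GC box, and for Eda2r (chrX:97377210-97377459, minus strand) the TATA box TATAAA.
Bax: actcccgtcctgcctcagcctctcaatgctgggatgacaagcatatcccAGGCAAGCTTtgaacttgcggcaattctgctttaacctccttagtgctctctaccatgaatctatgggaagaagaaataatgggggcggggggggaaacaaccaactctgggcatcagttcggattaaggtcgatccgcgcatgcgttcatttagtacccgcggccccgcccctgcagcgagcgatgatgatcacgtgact
Aen: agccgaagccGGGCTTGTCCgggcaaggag
Phlda3: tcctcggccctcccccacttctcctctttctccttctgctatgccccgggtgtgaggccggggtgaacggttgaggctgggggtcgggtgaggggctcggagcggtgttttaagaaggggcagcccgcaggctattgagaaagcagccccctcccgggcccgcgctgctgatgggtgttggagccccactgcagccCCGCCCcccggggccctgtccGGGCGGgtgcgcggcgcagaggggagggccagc
Eda2r: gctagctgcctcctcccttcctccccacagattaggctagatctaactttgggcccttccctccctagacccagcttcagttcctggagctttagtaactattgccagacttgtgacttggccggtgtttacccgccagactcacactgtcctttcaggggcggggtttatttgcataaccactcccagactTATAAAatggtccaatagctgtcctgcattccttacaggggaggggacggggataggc

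The half-site pattern equals its own reverse complement, so a single scan covers both strands, and the GC box GGGCGG, the TATA box with the letters TATAAA and the box CCAAT were searched on both strands. In Bax the half-site begins 201 bases before the start (position −201). In Aen it begins at +11 counted from one of its listed starts and at −121 counted from the other. A half-site was thus present for 2 of 7 members, in 3 of their 10 promoters, against 8.36% of all 32851 RefSeq promoters of the same length. The Aen promoters overlap and hold the same site, which is counted in each, and promoters of Bbc3 overlap too. Counts over the 10 promoters are therefore not counts of separate stretches. GGGCGG was present in 9 of the 10 member promoters and for all 7 members, against 35.7% of all promoters. TATAAA was present only in Eda2r among the 10, at −58, against 13.6%, and CCAAT in 4 of 10 against 37.4%. The share of G and C in the member promoters was 50.3% to 78%, and the median of all promoters was 52.7%. These are matches of letters, not measured binding, and a window without a match says only that those letters are not in it.

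**Figure D1:**
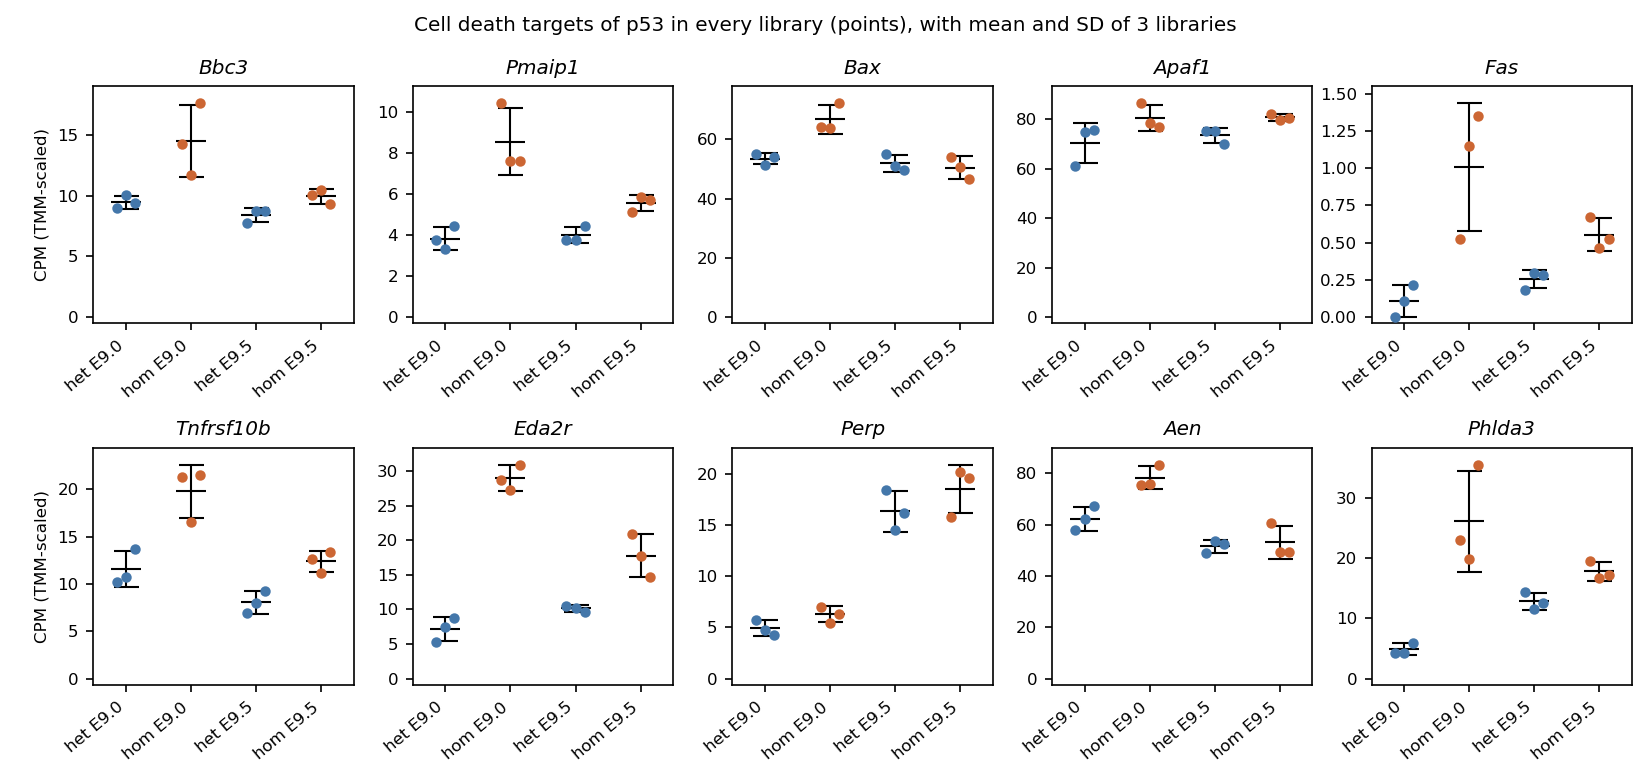
Level of each of the 10 genes in every library, in TMM-scaled CPM, with heterozygous libraries in blue and homozygous libraries in orange at E9.0 and E9.5. Points are libraries, and the bars are the mean and SD of 3 libraries; the orange points at E9.0 lie above the blue points at E9.0 for 9 of the 10 genes, with Perp as the exception, and each panel has its own axis.

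At E9.0 the homozygous embryos had higher levels of 6 of the 10 genes by edgeR's quasi-likelihood test: Fas, Phlda3, Eda2r, Pmaip1, Tnfrsf10b and Bbc3, in descending order of their change. A gene is called here when its p, adjusted with the Benjamini-Hochberg method over all 14810 genes, is under 0.05. In this comparison 0.432% of all genes tested were called higher. DESeq2 called 8 members higher, beside 0.952% of all genes, and limma-voom 5, beside 0.351%. All 10 log2 fold changes were above 0, from 0.19 for Apaf1 to 2.98 for Fas, with a median of 0.69, while the median over all genes tested was −0.0043. For 9 of the 10, every homozygous library lay above every heterozygous library, which was so for 9.07% of all genes. Without heterozygous E9.0 replicate 1, the library rich in Rn45s, 4 members were called: Eda2r (1.83), Phlda3 (2.33), Pmaip1 (1.12) and Fas (2.58), beside 0.319% of all genes called higher in that fit. Without heterozygous replicate 2, or without homozygous replicate 3, 3 members were called, Eda2r, Phlda3 and Pmaip1. In those fits 33 of 15052 and 33 of 14970 genes were called higher.

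In the mitochondrial arm, Bbc3 encodes PUMA, a BH3-only protein that binds all protective BCL2 proteins. Its level at E9.0 was 8.95, 10.03 and 9.37 CPM in heterozygous replicates 1, 2 and 3, and 14.3, 11.7 and 17.6 CPM in the homozygous ones. No libraries of the 2 genotypes overlapped, and homozygous replicate 3 was the highest of all 12 libraries. The log2 fold change was 0.61 ± 0.13 (edgeR adjusted p = 0.0479), which is 1.53-fold. This call stood close to the threshold: it was lost without any 1 of heterozygous replicates 1, 2 or 3 or homozygous replicates 1 or 3 of this stage, with log2 fold changes of 0.45 to 0.65 and edgeR adjusted p of 0.103 to 0.246, and was kept without homozygous replicate 2. It was also lost without any 1 E9.5 library other than heterozygous replicate 2 (edgeR adjusted p of 0.0575 to 0.0707). It was lost with limma-voom (adjusted p = 0.0869), among genes with a mean of at least 50 counts (edgeR adjusted p = 0.0520), and when only the E9.0 libraries were fitted with edgeR (adjusted p = 0.131). At E9.5 Bbc3 was at 7.74, 8.78 and 8.74 CPM in heterozygous and 10.1, 10.5 and 9.30 CPM in homozygous libraries. The groups again did not overlap, but the distance was smaller, at 0.24 ± 0.12 on the log2 scale (edgeR adjusted p = 0.428).

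Pmaip1, on chromosome 18, encodes NOXA, a BH3-only protein that binds a narrower set of protective proteins, mainly Mcl1. At E9.0 it was at 3.74, 3.33 and 4.43 CPM in heterozygous libraries and 10.4, 7.62 and 7.63 CPM in homozygous ones. Each homozygous library lay above the highest heterozygous one, and replicate 1 was the highest. Pmaip1 rose 2.21-fold (log2 1.14 ± 0.16, edgeR adjusted p = 0.0017), and the call was kept in all 6 fits that left out 1 library of this stage. At E9.5 its levels were 3.78, 3.79 and 4.44 CPM in heterozygous and 5.13, 5.86 and 5.70 CPM in homozygous libraries. All 3 homozygous libraries were higher, yet the difference of 0.48 ± 0.15 on the log2 scale was not called (edgeR adjusted p = 0.138). The heterozygous levels overlapped between the stages, so the lower ratio at E9.5 came with lower homozygous levels.

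Bax encodes the effector that forms pores in the outer mitochondrial membrane, and Apaf1 the scaffold of the apoptosome. Both were abundant, with 2967 and 3987 counts over the heterozygous E9.0 group. Bax was at 55.1, 51.4 and 54.1 CPM in heterozygous and 64.0, 64.0 and 72.3 CPM in homozygous libraries at E9.0. No homozygous library reached down to a heterozygous one, but the difference of 0.32 ± 0.07 on the log2 scale just missed the threshold (edgeR adjusted p = 0.0625). It was called with upper-quartile scaling (edgeR adjusted p = 0.0400) and with DESeq2 (adjusted p = 0.0103). The difference was 0.34 without heterozygous E9.0 replicate 1 (edgeR adjusted p = 0.0927). At E9.5 Bax was at 55.1, 51.2 and 49.6 CPM in heterozygous and 54.1, 50.7 and 46.5 CPM in homozygous libraries, groups that overlapped in part (log2 −0.04 ± 0.07, 95% interval −0.19 to 0.11, edgeR adjusted p = 0.879). The Bax model of GENCODE M21 shares 192 exon bases, 12.2% of its exons, with the readthrough gene Gm45808 on the same strand, which has no row in the table.

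Apaf1 had the smallest change at E9.0. Its levels were 61.1, 74.8 and 75.7 CPM in heterozygous and 86.5, 78.5 and 76.8 CPM in homozygous libraries, with a log2 difference of 0.19 ± 0.08 (edgeR adjusted p = 0.297). The groups did not overlap, but heterozygous replicate 1, the library rich in Rn45s, lay well below its group, and without it the difference was 0.10 (edgeR adjusted p = 0.520). At E9.5 the levels were 75.2, 75.1 and 70.1 CPM in heterozygous and 82.2, 79.6 and 80.6 CPM in homozygous libraries. These groups did not overlap either, and the difference of 0.14 ± 0.07 was not called (edgeR adjusted p = 0.453).

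In the death receptor arm, Fas encodes the receptor of Fas ligand. It was by far the scarcest member: its counts at E9.0 were 0, 2 and 5 in heterozygous and 7, 20 and 20 in homozygous libraries. In CPM that is 0, 0.107 and 0.215 against 0.526, 1.15 and 1.35, and a count of 0 in the first library allows a level of up to 0.220 CPM. The groups did not overlap. From the summed counts of 7 and 47, the ratio relative to scaled library size was 8.18, with a 95% exact interval of 3.68 to 21.5 that covers counting error only, and edgeR gave a log2 fold change of 2.98 ± 0.55 (adjusted p = 0.0183). With 1 library of the stage left out the log2 fold change was 2.58 (without heterozygous replicate 1) to 3.94 (without heterozygous replicate 3). The call was lost without heterozygous replicate 2 (edgeR adjusted p = 0.124), without homozygous replicate 2 (0.0591) and without homozygous replicate 3 (0.112). At E9.5 Fas was at 0.183, 0.293 and 0.284 CPM in heterozygous and 0.674, 0.461 and 0.525 CPM in homozygous libraries, from 24 and 49 summed counts. Every homozygous library was again higher, at a ratio of 2.18 (counting interval 1.31 to 3.72), but the gene was not called (edgeR log2 1.11 ± 0.43, adjusted p = 0.254).

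Tnfrsf10b encodes the mouse receptor of the ligand TRAIL. At E9.0 it was at 10.2, 10.7 and 13.7 CPM in heterozygous and 21.3, 16.5 and 21.5 CPM in homozygous libraries. Every homozygous library was higher, and Tnfrsf10b rose 1.69-fold (log2 0.76 ± 0.14, edgeR adjusted p = 0.0193). The call was kept in 2 of 6 fits that left out a library of this stage, and was lost without heterozygous replicates 1 (adjusted p = 0.0729) or 2 (0.145) and without homozygous replicates 1 (0.0826) or 3 (0.124), all by edgeR. At E9.5 it was at 6.89, 8.01 and 9.31 CPM in heterozygous and 12.6, 11.2 and 13.4 CPM in homozygous libraries. Again no library overlapped, and Tnfrsf10b was called at this stage too, at 1.54-fold (log2 0.62 ± 0.14, edgeR adjusted p = 0.0285). That call was lost without heterozygous replicates 1 (adjusted p = 0.105) or 2 (0.0880), without homozygous replicates 1 (0.0864) or 3 (0.122), and with scaling to total counts only (0.127), all by edgeR.

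Eda2r, at chrX:97333840-97377216 on the minus strand, encodes the receptor of ectodysplasin A2. It was at 5.21, 7.51 and 8.73 CPM in heterozygous and 28.7, 27.2 and 30.9 CPM in homozygous libraries at E9.0. The lowest homozygous library lay more than 3 times above the highest heterozygous one. With a 3.96-fold rise (log2 1.99 ± 0.15, edgeR adjusted p = 9.2e-06), Eda2r had the smallest p of all 14810 genes in this comparison, and its adjusted p was at most 0.000213 when any 1 library was left out. At E9.5 it was at 10.5, 10.2 and 9.63 CPM in heterozygous and 20.9, 17.7 and 14.7 CPM in homozygous libraries. The groups did not overlap and Eda2r rose 1.75-fold (log2 0.81 ± 0.14, edgeR adjusted p = 0.0070), a call kept in all 6 fits that left out a library of this stage. Eda2r is X-linked, and the libraries differed in sex-linked transcripts within groups: Xist was at or under 0.220 CPM in 1 library of each group, and Y-linked genes summed to at most 0.0675 CPM in 1 homozygous library of each stage. The remaining libraries held transcripts of both kinds, such as heterozygous E9.0 replicate 2 with 280 CPM of Xist and 110 CPM of Y-linked genes, so these were not of a single sex. In the homozygous E9.0 group the libraries with the lowest and the highest Xist, replicates 1 and 3, had 28.7 and 30.9 CPM of Eda2r. In the heterozygous E9.0 group the library with low Xist, replicate 1, had 5.21 CPM of Eda2r, below the 7.51 and 8.73 CPM of the other two. At E9.5 the heterozygous library with low Xist, replicate 1, had the highest Eda2r of its group (10.5 CPM), and the homozygous one, replicate 2, lay between the other two (17.7 CPM). The part of embryo sex in these levels was not tested.

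Of the members outside both arms, Phlda3 encodes a pleckstrin homology protein that competes with Akt for membrane lipids and so restrains a survival signal. It lies at chr1:135766119-135769136 on the plus strand. At E9.0 Phlda3 was at 4.26, 4.24 and 5.98 CPM in heterozygous and 22.9, 19.8 and 35.5 CPM in homozygous libraries. The groups were more than 3 times apart, homozygous replicate 3 was the highest, and Phlda3 rose 5.30-fold (log2 2.41 ± 0.21, edgeR adjusted p = 8.4e-05). The call was kept in all 6 fits that left out a library of this stage. At E9.5 the heterozygous libraries were at 14.4, 11.5 and 12.5 CPM and the homozygous ones at 19.6, 16.7 and 17.1 CPM. Those groups still did not overlap, but the log2 fold change was 0.48 ± 0.18 and not called (edgeR adjusted p = 0.260), except when only the E9.5 libraries were fitted (edgeR adjusted p = 0.0420).

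Aen encodes a nuclease that enters the nucleus in apoptosis, and Perp a membrane protein that is both a p53 target and part of desmosomes in stratified epithelia. Aen was at 57.8, 62.1 and 67.2 CPM in heterozygous and 75.5, 76.0 and 83.4 CPM in homozygous libraries at E9.0. The groups did not overlap, but the difference of 0.32 ± 0.08 on the log2 scale was not called (edgeR adjusted p = 0.103), while DESeq2 called it (adjusted p = 0.0336). The difference was 0.27 without heterozygous E9.0 replicate 1 (edgeR adjusted p = 0.207). At E9.5 it was at 48.8, 53.6 and 52.6 CPM in heterozygous and 60.5, 49.3 and 49.5 CPM in homozygous libraries, with homozygous replicate 1 above and the other two among the heterozygous values (log2 0.04 ± 0.08, edgeR adjusted p = 0.907).

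Perp was the only member whose groups overlapped at E9.0, at 5.73, 4.77 and 4.21 CPM in heterozygous and 6.99, 5.44 and 6.35 CPM in homozygous libraries (log2 0.37 ± 0.16, edgeR adjusted p = 0.352; 0.47 and 0.258 without heterozygous replicate 1). At E9.5 it was at 18.4, 14.5 and 16.1 CPM against 15.8, 20.2 and 19.5 CPM, again overlapping (log2 0.18 ± 0.12, edgeR adjusted p = 0.591). Since Perp is abundant in epithelia, epithelial markers stand beside it. The summed level of 14 epithelial markers was 526 to 597 CPM in heterozygous and 643 to 665 CPM in homozygous libraries at E9.0, and 528 to 641 and 633 to 808 CPM at E9.5. None of the 14 was at 0 in a whole group. At E9.0, 13 of the 14 had log2 fold changes above 0 and edgeR called 0 of them, with 10 at an unadjusted p under 0.05, beside 13.3% of all genes, and 0 called by DESeq2 or limma-voom. By edgeR these counts were again 13, 0 and 10 without heterozygous E9.0 replicate 1. At E9.5, 12 were above 0 and only Epcam was called (0.31 ± 0.07, edgeR adjusted p = 0.0400). At an unadjusted edgeR p under 0.05 there were 9, beside 1984 of all 14810 genes. Averaged over both stages, edgeR called 3 of the 14 higher, beside 1.82% of all genes, and DESeq2 called 5. In that comparison 13 had an unadjusted edgeR p under 0.05, beside 2500 of all genes. The part of epithelial content in the level of Perp was not tested.

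**Figure D2:**
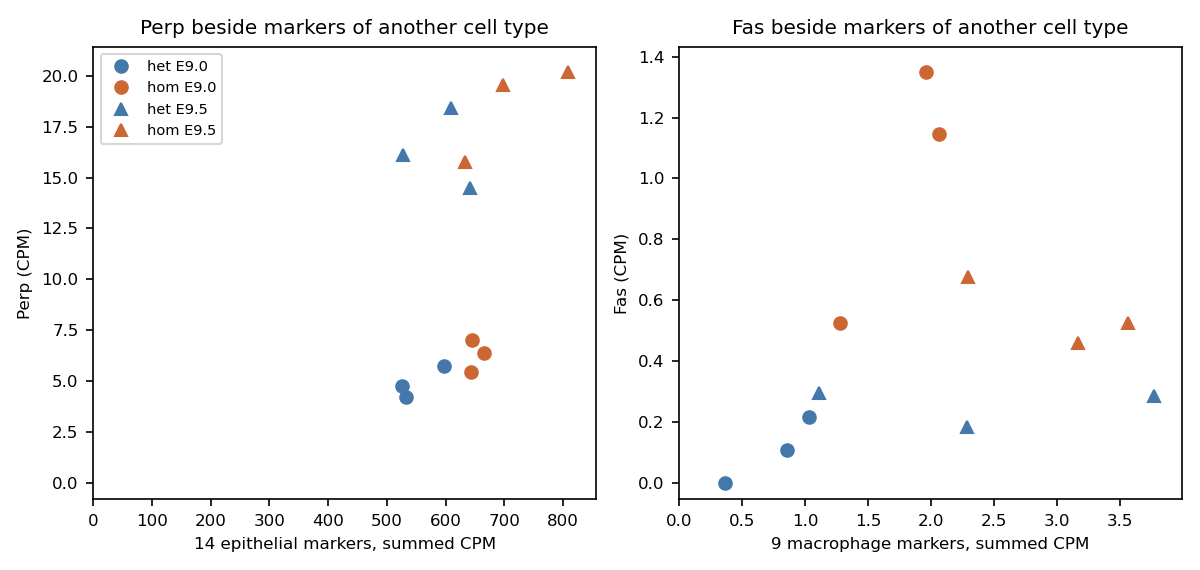
Level of Perp against the summed level of 14 epithelial markers (left) and of Fas against that of 9 macrophage markers (right), both axes in CPM, 1 point per library, circles for E9.0 and triangles for E9.5, blue for heterozygous and orange for homozygous. The homozygous E9.0 libraries lie to the right of and above the heterozygous E9.0 libraries for Fas, and the Perp levels of the stages form separate bands.

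Fas is also expressed by blood cells, and the sum of macrophage markers, though low, was also higher in every homozygous than in every heterozygous E9.0 library. The summed level of 9 macrophage markers was 0.367 to 1.03 CPM in heterozygous and 1.28 to 2.06 CPM in homozygous libraries at E9.0, and 1.12 to 3.76 and 2.29 to 3.56 CPM at E9.5. C1qa, C1qb and Aif1 were listed at 0 in every heterozygous E9.0 library. Only 3 of the 9 had enough counts to be tested, and at either stage edgeR, DESeq2 and limma-voom called 0 of those, with 0 at an unadjusted edgeR p under 0.05. With heterozygous E9.0 replicate 1 left out, 4 were tested at E9.0 and edgeR again called 0, with 0 at an unadjusted p under 0.05. The macrophage sums of the heterozygous E9.5 and the homozygous E9.0 libraries overlapped. Fas was at up to 0.293 CPM in the former and at 0.526 CPM or more in the latter. These groups differ in both genotype and stage, whose parts cannot be told apart here. The part of macrophage content in the level of Fas was not tested.

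**Figure D3:**
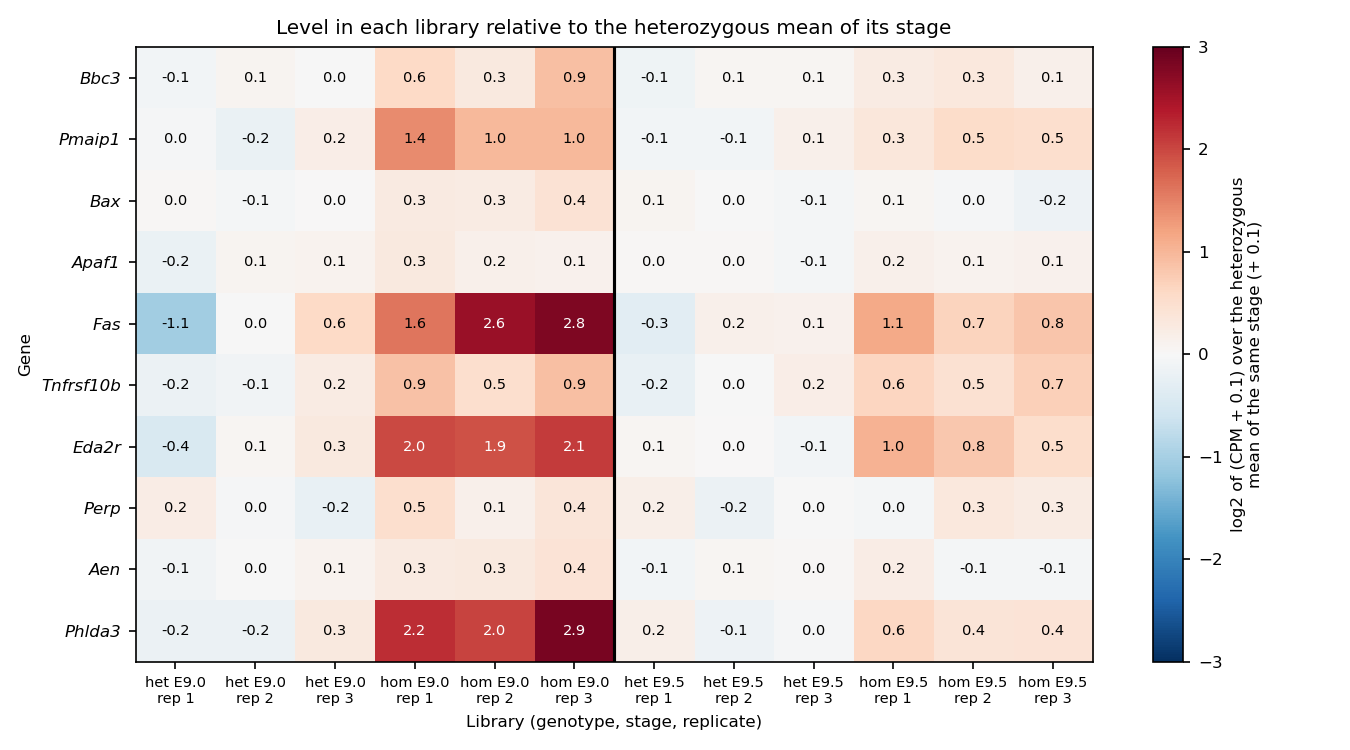
Level of each gene in each library relative to the mean of the heterozygous libraries of the same stage, as log2 of CPM + 0.1 over that mean + 0.1, printed in each cell and coloured from blue (lower) to red (higher). The strongest red cells are those of Fas, Phlda3 and Eda2r in the 3 homozygous E9.0 libraries, and the homozygous E9.5 libraries are paler for the same genes.

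At E9.5, as the values above show, 2 of the 10 members were called higher in homozygous libraries, Eda2r and Tnfrsf10b, beside 1.19% of all genes tested. No member was called lower at either stage. For 7 members every homozygous library lay above every heterozygous one, beside 11.4% of all genes, and the exceptions were Bax, Aen and Perp. The median log2 fold change of the 10 was 0.36, against −0.0026 over all genes, and 9 of 10 were above 0. Averaged over both stages, 6 members were called higher, beside 1.82% of all genes. They were the 6 called at E9.0, with averaged log2 fold changes of 0.43 for Bbc3, 0.81 for Pmaip1, 2.05 for Fas, 0.69 for Tnfrsf10b, 1.40 for Eda2r and 1.44 for Phlda3. The genotype comparisons at E9.0 and E9.5 share no library, but all 12 libraries share the estimate of the spread. Cell type markers moved with genotype at E9.5 too: edgeR called 8 of 10 endothelial markers higher in homozygous libraries (Cdh5, Tek, Kdr, Tie1, Flt1, Sox18, Egfl7 and Ramp2, with summed levels of 183 to 258 CPM in heterozygous and 328 to 369 CPM in homozygous libraries) and 5 of 10 neural crest markers lower (Sox10, Foxd3, Tfap2b, Crabp1 and Pax3, with 648 to 701 and 479 to 602 CPM). Of the ganglion markers, Pou4f1 and Tubb3 were called lower, and the list summed to 249 to 270 CPM in heterozygous and 231 to 235 CPM in homozygous libraries. At E9.0 only Tfap2b of these 30 markers was called, lower in homozygous libraries, but the sums moved there too. The endothelial sum was 282 to 303 CPM in heterozygous and 332 to 344 CPM in homozygous E9.0 libraries. All 10 endothelial log2 fold changes were above 0, and 3 had an unadjusted edgeR p under 0.05, beside 13.3% of all genes. Without heterozygous E9.0 replicate 1, Tfap2b was again the single call among the 30, and 2 endothelial markers had an unadjusted edgeR p under 0.05. The ganglion sum was 165 to 168 against 174 to 175 CPM, also without overlap, while the neural crest sums of 828 to 924 and 803 to 880 CPM overlapped. The part of these cell types in the levels of the 10 genes was not tested.

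The change between stages in the size of the genotype difference was tested as an interaction. All 10 estimates were below 0, that is, the homozygous to heterozygous ratio was smaller at E9.5, from −0.05 for Apaf1 to −1.93 for Phlda3, with a median of −0.37 against 0.0095 over all genes. Of the 10, 1 was called, Phlda3 (−1.93 ± 0.28, edgeR adjusted p = 0.0213), beside 0.0675% of all genes called in either direction, and 6 had an unadjusted edgeR p under 0.05, beside 8.6% of all genes. DESeq2 called 2 members, beside 0.513% of all genes, and limma-voom 0, beside 0.0338%. Phlda3 moved in both genotypes: its heterozygous mean went from 4.82 ± 0.999 CPM (SD, n = 3) at E9.0 to 12.8 ± 1.46 CPM at E9.5 and its homozygous mean from 26.1 ± 8.32 to 17.8 ± 1.57 CPM. The call was kept in 6 of 12 fits that left out 1 library. It was lost without heterozygous E9.0 replicates 1 (−1.86, adjusted p = 0.115) or 2 (−1.83, 0.113), without heterozygous E9.5 replicate 1 (−1.83, 0.0610), and without homozygous E9.5 replicates 1 (−2.00, 0.0586), 2 (−1.88, 0.0917) or 3 (−1.90, 0.110), all by edgeR. It was also lost without the filter on low counts (−1.91, edgeR adjusted p = 0.0672) and with limma-voom (−1.88, adjusted p = 0.0678). Eda2r came next (−1.18 ± 0.21, edgeR adjusted p = 0.0529). It was called with RLE (adjusted p = 0.0494), upper-quartile (0.0456) or total-count scaling (0.0398), without the filter on low counts (0.0183) and with DESeq2 (5.6e-05), and by edgeR without heterozygous E9.0 replicate 3 (−1.35, 0.0202) or homozygous E9.5 replicate 1 (−1.30, 0.0463). For the other 8 the difference between stages was not called, with intervals such as −1.13 to −0.19 for Pmaip1, −0.56 to 0.28 for Tnfrsf10b and −3.46 to −0.29 for Fas.

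**Figure D4:**
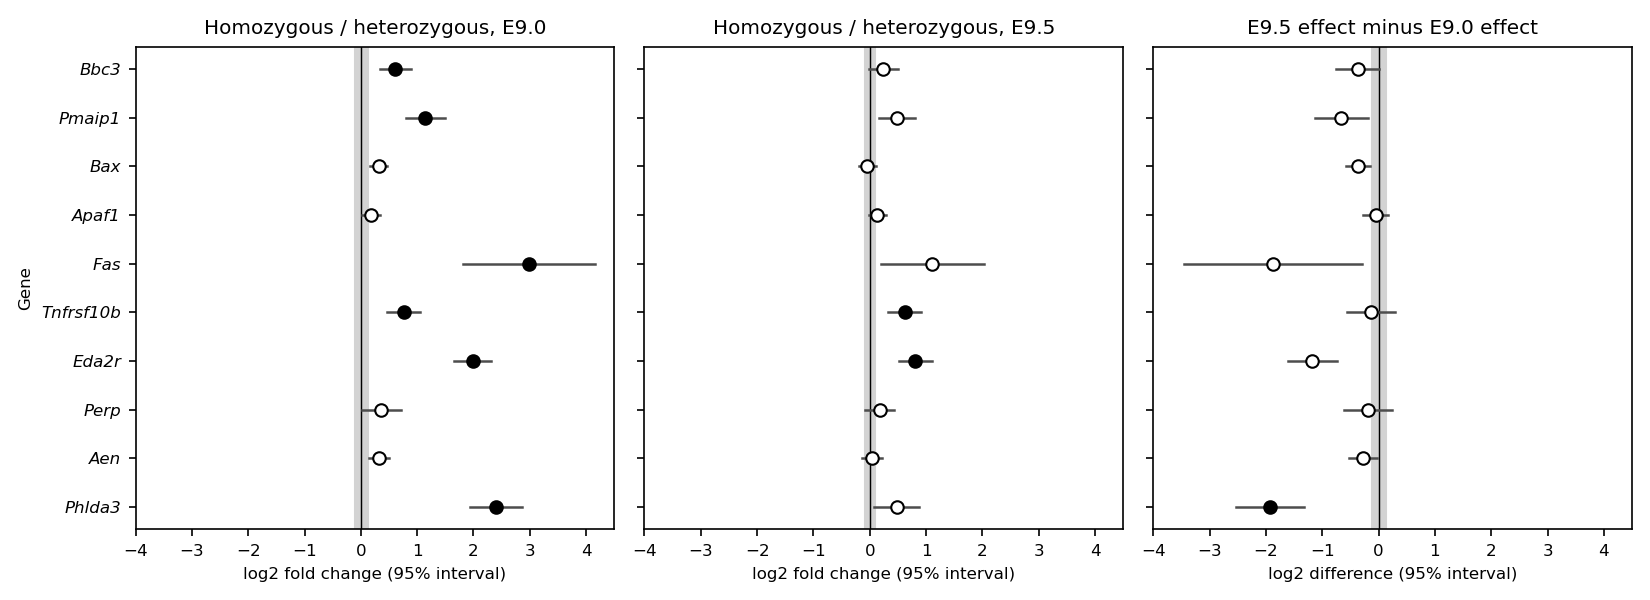
Log2 fold change of homozygous over heterozygous libraries at E9.0 (left) and E9.5 (middle), and the E9.5 effect minus the E9.0 effect (right), with 95% intervals from edgeR. Filled circles passed an adjusted p of 0.05, and the grey band spans the interquartile range of all 14810 genes; 6 circles are filled at E9.0, 2 at E9.5 and only Phlda3 on the right.

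The stage comparison within each genotype gives the levels behind the smaller ratios. These comparisons use the same libraries as the genotype comparisons, so their values are set side by side and are not separate evidence. In heterozygous libraries 3 members rose from E9.0 to E9.5, beside 19.2% of all genes: Perp (log2 1.76 ± 0.14, edgeR adjusted p = 2.4e-07), Phlda3 (1.38 ± 0.21, adjusted p = 0.000261) and Eda2r (0.47 ± 0.16, adjusted p = 0.0262). In the same libraries 2 members fell, beside 16.0% of all genes: Tnfrsf10b (−0.53 ± 0.14, edgeR adjusted p = 0.0087) and Aen (−0.28 ± 0.08, adjusted p = 0.0158). In homozygous libraries only Perp rose (1.57 ± 0.14, edgeR adjusted p = 5.9e-07), beside 19.6% of all genes. There 7 members fell, beside 15.8% of all genes: Eda2r (−0.70), Tnfrsf10b (−0.67), Pmaip1 (−0.61), Aen (−0.56), Phlda3 (−0.55), Bbc3 (−0.54) and Bax (−0.40). Fas had −0.88 ± 0.38 in the homozygous libraries, with overlapping ranges, and was not called (edgeR adjusted p = 0.0849). Apaf1 did not pass this test in either genotype, with 0.06 ± 0.07 and 0.0036 ± 0.07.

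Several of the stage calls rest on single libraries. Among the heterozygous libraries, the Eda2r call was lost without E9.0 replicates 1 (0.32, edgeR adjusted p = 0.0989) or 2 (0.50, 0.0550) and without E9.5 replicates 1 (0.45, 0.0738) or 2 (0.47, 0.0542). The Tnfrsf10b call was lost without E9.0 replicate 3 (−0.38, edgeR adjusted p = 0.0689), and the Aen call without E9.0 replicate 3 (−0.22, 0.0810) or E9.5 replicate 1 (−0.23, 0.0734). Among the homozygous libraries the Phlda3 call was lost without E9.0 replicate 3 (−0.26, edgeR adjusted p = 0.164), E9.5 replicate 2 (−0.50, 0.0940) or E9.5 replicate 3 (−0.52, 0.0889), and Fas was called without E9.0 replicate 1 (−1.16, 0.0321). With scaling to total counts only, the median stage effect over all genes moved to 0.38 in heterozygous and 0.18 in homozygous libraries. With that scaling edgeR called 3326 of all 14810 genes with stage in homozygous libraries, 2897 of them higher at E9.5. With TMM factors it called 2896 higher and 2342 lower. Of the 8 member calls in homozygous libraries, 3 remained with total counts only, Perp, Eda2r and Tnfrsf10b. Those of Bbc3 (−0.36, edgeR adjusted p = 0.121), Pmaip1 (−0.44, 0.0951), Bax (−0.23, 0.250), Aen (−0.39, 0.0678) and Phlda3 (−0.37, 0.156) were lost. In heterozygous libraries Aen turned to 0.086, Tnfrsf10b was at −0.17 and no longer called (edgeR adjusted p = 0.425), and Apaf1 was called at 0.41 (adjusted p = 0.0365). The homozygous Phlda3 call was also lost without the filter on low counts (−0.51, edgeR adjusted p = 0.0912) and with only the homozygous libraries fitted (−0.55, 0.0686). Erythroid markers moved with stage too, from 552 to 1216 CPM over the E9.0 libraries to 2836 to 5297 CPM over the E9.5 libraries, and their part in the stage effects was not tested.

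Set side by side, the homozygous E9.0 libraries lay above every heterozygous E9.5 library for 9 of the 10 members, with Perp below, and 22.5% of all genes tested showed the same order. These groups differ in both genotype and stage, whose parts cannot be told apart here. Eda2r was at 27.2 to 30.9 CPM in the former and 9.63 to 10.5 CPM in the latter, Phlda3 at 19.8 to 35.5 and 11.5 to 14.4 CPM, and Pmaip1 at 7.62 to 10.4 and 3.78 to 4.44 CPM. Of these, Eda2r and Phlda3 were higher in every heterozygous E9.5 than in every heterozygous E9.0 library, while for Pmaip1 these 2 groups overlapped.

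To order the members by level, CPM were divided by the length of each gene's merged exons in GENCODE M21, in kilobases. Bax was the most abundant in every group, at 34.0, 42.4, 33.0 and 32.0 CPM per kb in heterozygous E9.0, homozygous E9.0, heterozygous E9.5 and homozygous E9.5 libraries. Fas was the scarcest in every group, at 0.0521 to 0.489 CPM per kb. In heterozygous E9.0 libraries the order after Bax was Aen, Apaf1, Bbc3, Phlda3, Perp, Tnfrsf10b, Pmaip1 and Eda2r, of which Phlda3 and Perp, Perp and Tnfrsf10b, and Pmaip1 and Eda2r were neighbours whose ranges overlapped. In homozygous E9.0 libraries Phlda3 was next after Bax, at 16.7 CPM per kb against 3.09 in the heterozygous libraries, with a range that overlapped that of Aen at 13.5 CPM per kb. Eda2r had rank 9 at 1.21 CPM per kb in heterozygous and rank 6 at 4.91 CPM per kb in homozygous E9.0 libraries. At E9.5 Perp had rank 3 in both genotypes, at 8.37 and 9.48 CPM per kb, and Phlda3 had rank 4 in heterozygous libraries at 8.21 and rank 2 in homozygous ones at 11.4 CPM per kb. In the heterozygous E9.5 libraries the neighbours Aen and Perp, Perp and Phlda3, Phlda3 and Apaf1, Eda2r and Tnfrsf10b, and Tnfrsf10b and Pmaip1 had overlapping ranges. In the homozygous E9.5 libraries so did Perp and Aen, Aen and Apaf1, and Tnfrsf10b and Pmaip1, and in the homozygous E9.0 libraries also Tnfrsf10b and Perp, and Perp and Pmaip1.

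Outside the members, the genes of both arms did not pass edgeR's test. Of 20 further genes of the mitochondrial arm, among them the protective Bcl2, Bcl2l1 and Mcl1, the effector Bak1, the BH3-only genes Bcl2l11, Bid and Bik, and the initiator caspase Casp9, edgeR called 0 at either stage. Their median log2 fold changes were 0.01 at E9.0 and 0.03 at E9.5. The highest at E9.0 was Bik, a BH3-only gene with 12 to 68 counts per library (0.95, edgeR adjusted p = 0.146), and Mcl1, which binds NOXA, was at 0.05 (edgeR adjusted p = 0.827). At an unadjusted edgeR p under 0.05 there were 2 of the 20 at each stage, beside 1969 (E9.0) and 1984 (E9.5) of all 14810 genes. DESeq2 and limma-voom called 0 of the 20.

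Of 16 further genes of the death receptor arm, 12 could be tested and edgeR called 0 at either stage, with medians of −0.04 and 0.06. At an unadjusted edgeR p under 0.05 there were 0 at E9.0 and 5 at E9.5, beside 1969 and 1984 of all 14810 genes. DESeq2 and limma-voom each called 1, Casp8 at E9.5. The ligand genes Fasl and Tnfsf10 had at most 3 and 5 counts in any library, and the decoy receptor genes Tnfrsf23 and Tnfrsf26 at most 10 and 13, and they were left out by the filter and not tested. Without heterozygous E9.0 replicate 1, edgeR called 0 of 20 genes of the mitochondrial arm and 0 of 13 of the death receptor arm at E9.0, with 4 and 0 at an unadjusted p under 0.05. Fadd, the adaptor of Fas, was at −0.04 at E9.0 (edgeR adjusted p = 0.884), and Casp8 at 0.02 (adjusted p = 0.961) and, at E9.5, at 0.36 (adjusted p = 0.0695).

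Further p53 targets, from cell cycle arrest, repair, metabolism and also cell death, were counted as a list of their own. Of 26, 24 could be tested, and edgeR called 11 higher in homozygous libraries at E9.0, beside 0.432% of all genes. They were Mdm2, Cdkn1a, Ccng1, Sesn2, Btg2, Plk2, Zmat3, Trp53inp1, Ptprv, Ak1 and Ddit4l. Their list had a median log2 fold change of 0.37 at E9.0 over the 24 tested, against 0.69 for the 10 members. At E9.5 4 were called higher, Cdkn1a, Ccng1, Ak1 and Ddit4l, beside 1.19% of all genes, and the median was 0.10. Of the 11 called at E9.0, all but Zmat3 (0.47, edgeR adjusted p = 0.0789) were also called when heterozygous E9.0 replicate 1 was left out. The 25 targets tested in that fit had a median of 0.41, and 0.319% of all genes were called higher in it. Mdm2, the p53 antagonist, rose by 0.42 ± 0.06 on the log2 scale at E9.0 (edgeR adjusted p = 0.0032; 0.41 and 0.0136 without that library), and its difference at E9.5 was 0.03 ± 0.06 (adjusted p = 0.900). Trp53, the gene of p53 itself, differed by 0.05 ± 0.09 at the earlier stage (edgeR adjusted p = 0.850; 0.19 and 0.240 without that library) and by 0.07 ± 0.09 at the later one (adjusted p = 0.842).

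The tested genes outside the members whose levels across libraries were most like the mean of the 10 members' standardised log2 CPM were Cdkn1a (Pearson r = 0.991), Fam212b (0.983), Slc19a2 (0.980), Synm (0.980) and Ccng1 (0.973), over 12 libraries with the mean of each stage removed. These points share libraries and scaling, and r is given as a description. Among the members themselves r with that mean was highest for Eda2r (0.986) and Phlda3 (0.980) and lowest for Apaf1 (0.753) and Perp (0.593); each member is part of the mean it was set against.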

How the data were processed

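RNA was sequenced in 12 libraries from mouse embryos. Per the submitters' processing notes, cutadapt, STAR, featureCounts and MultiQC were used with the build mm10; versions, settings, annotation and use of strand are not given in the sources used here. The authors deposited 1 table of raw counts per gene symbol, whole numbers with no normalization. Each of its 12 columns was matched to a sample by its label. Reads of overlapping or antisense genes cannot be told apart where the counting ignored strand.

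The analysis of the counts used edgeR 4.0.16 in R 4.3.3. The filterByExpr function kept 14810 of 24421 symbols, and the 9611 left out held at most 0.0778% of the counts of a library. Libraries of 13914543 to 31172708 counts were scaled with TMM factors. The quasi-likelihood F test with robust dispersions was run in 1 model with a mean for each group (common biological coefficient of variation 8.77%), two-sided, with Benjamini-Hochberg adjustment over all genes tested and a threshold of 0.05. A standard error is the size of the log2 fold change over the root of its F. With 3 libraries against 3, an exact permutation test of the CPM cannot go below p = 0.1, and that value was reached by every member whose groups did not overlap. Intervals of count ratios are exact and cover counting error only. Gene models came from GENCODE M21, and promoters from RefSeq (GRCm38.p6). The fit was also run on simulated data, whose outcome is not given here. Alternatives were RLE, upper-quartile or no scaling factors, DESeq2 1.42.0, limma-voom (limma 3.58.1), genes without a filter, genes with a mean count of 50 or more, fits of only the groups compared, a block for the replicate number, and each library left out in turn; for the values of single genes in the interaction, the averaged and the stage effects, and for the lists and Eftud2 without heterozygous E9.0 replicate 1, they were added after the data had been seen.

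The 10 members and all gene and marker lists were chosen with earlier results of these data known. The genes named are the 10 members, the genes of the other lists past the threshold in a genotype comparison, Eftud2, Trp53 and Mdm2, and the 5 genes most like the members, except that some results the rule selects are not reported here; Bik, Mcl1, Fadd, Casp8 and the untested ligand and receptor genes were named after their values had been seen. Erythroid and sex-linked markers (8 and 5 genes) had 0 calls in either genotype comparison by edgeR, DESeq2 or limma-voom, with 0 at an unadjusted edgeR p under 0.05, also at E9.0 by edgeR without heterozygous replicate 1.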

Additional observations from a re-analysis of the deposited data

Results flagged for a closer look

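The genotype difference of Phlda3 itself differed between the stages by a test of that difference. Homozygous over heterozygous, the log2 fold change came to 2.41 in E9.0 libraries and to 0.48 in E9.5 libraries, and the interaction term was −1.93 ± 0.28 (edgeR adjusted p = 0.0213 over 14810 genes). The call was kept in 6 of 12 fits that left out 1 library (log2 −2.14 to −1.64, adjusted p up to 0.115), and was lost with limma-voom (adjusted p = 0.0678) and without the filter on low counts (edgeR adjusted p = 0.0672). Each homozygous library was above each heterozygous library at both stages, and the heterozygous level itself was higher at E9.5 than at E9.0. The markers of erythroid cells, endothelium and neural crest differed between the stages or genotypes as given above, and their part in this difference was not tested.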

How the results depend on the processing

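The 6 calls at E9.0 became 4 to 8 under the other settings (8 with DESeq2, beside 0.952% of all genes called higher, and 5 with limma-voom, beside 0.351%). They became 3 to 6 when 1 library was left out. There were 3 without heterozygous replicate 2 (33 of 15052 genes called higher) or homozygous replicate 3 (33 of 14970) of that stage. The 2 calls at E9.5 became 1 to 2 with 1 library left out. They became 1 with total counts only (123 of all 14810 genes called) and 3 with only the groups compared (266 of 14695). The 6 calls averaged over the stages became 5 to 6 throughout. The single interaction call became 2 with RLE factors, upper-quartile factors, total counts only or DESeq2 (76 of all 14810 genes called), 0 with limma-voom (5 of all genes called), and 0 to 2 with 1 library left out. In edgeR's test of that difference 6 of the 10 had an unadjusted p under 0.05, beside 8.6% of all genes. The stage calls became 3 to 5 in heterozygous libraries with 1 library left out. There were 3 without heterozygous E9.0 replicate 3 (4460 of 15035 genes called) or heterozygous E9.5 replicate 1 (4088 of 15025). In homozygous libraries 3 of 8 were called with total counts only, beside 3326 of all 14810 genes, 2897 of them higher at E9.5. That scaling moved the median of all genes to 0.19 at E9.0, to 0.38 and 0.18 for the stage effects and to −0.19 for the interaction. With it the heterozygous stage effects turned to 0.19 for Bbc3, 0.33 for Bax and 0.086 for Aen. Apaf1 in homozygous libraries turned to −0.0085 with RLE factors, −0.0057 with upper-quartile factors and −0.0084 with DESeq2. With 1 library left out, uncalled effects that changed sign ranged from −0.092 to 0.013 for Bax and −0.059 to 0.10 for Aen at E9.5, −0.10 to 0.039 for the Apaf1 interaction, −0.048 to 0.18 for Pmaip1 and −0.033 to 0.11 for Apaf1 with stage in heterozygous libraries, and −0.029 to 0.058 for Apaf1 in homozygous ones. The cause of these shifts was not tested.

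The labels do not say whether the replicate numbers pair the samples. Same-numbered libraries of a stage had correlations of 0.0297 to 0.109 in their deviations from the group means, and libraries with unlike numbers −0.196 to 0.171. Deviations within a group of 3 are tied to each other, so these values cannot decide whether the samples were paired. With the number as a replicate block the Bbc3 call at E9.0 was lost (edgeR adjusted p = 0.0796). Fas could not be tested under a mean of at least 50 counts, nor at E9.0 with only the groups compared, and its 7 heterozygous counts limit how closely its fold change is known.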
